A study of Homo sapiens with 6 samples.

Results

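The genes described here encode the kinetochore, the spindle assembly checkpoint that reads its attachment, and the proteins that act when the checkpoint is satisfied. They are 41 genes of the 27968 in the deposited gene tables, listed by symbol, and they were followed in 6 RNA libraries of H23 cells, an established human lung adenocarcinoma line grown as a culture. Control siRNA was used for 3 libraries and an siRNA labelled as specific for HOTAIR-N for the other 3, and RNA was taken 48 hours after lipid transfection. HOTAIR is a long non-coding RNA of the HOXC cluster. Both groups went through transfection, no untransfected cells were analysed here, and the sources used here do not give the siRNA sequences. The 3 libraries of a group are labelled as independent transfections of 1 line.

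The kinetochore is the protein assembly that joins a chromosome's centromere to spindle microtubules. CENP-A, a histone H3 variant, marks centromeric chromatin, the constitutive centromere-associated network (CCAN) binds it through the whole cell cycle, and the KNL1, MIS12 and NDC80 complexes (together KMN) build the outer layer that holds microtubules. Until every kinetochore is attached, MPS1 (the product of TTK), BUB and MAD proteins keep CDC20 from activating the anaphase-promoting complex, the ubiquitin ligase whose action on securin frees separase to cut cohesin. Many of these genes are transcribed mainly in G2 and mitosis, so in a bulk culture a lower level can come from fewer mitotic cells or from less RNA per cell, and the libraries cannot tell these apart.

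The libraries held 32715361 to 36578681 expected counts. HOTAIR itself was 4.19, 3.87 and 4.87 TPM (a transcript level adjusted for length and library size) in the control libraries and 2.26, 1.87 and 1.99 TPM with HOTAIR-N siRNA, so the groups did not overlap. Its log2 fold change, HOTAIR-N siRNA against control siRNA, was -1.04 (SE 0.14, edgeR quasi-likelihood test, adjusted p = 1.32e-05), and p was 0.1 by exact permutation (two-sided), the minimum for 3 libraries against 3. The epithelial keratins KRT8 and KRT18 were abundant, at 1505 and 2592 TPM on average with control siRNA and 1569.8 and 1535 TPM with HOTAIR-N siRNA. The summed level of 11 epithelial markers was 3733 to 4443 TPM with control siRNA and 2940.4 to 3309 TPM with HOTAIR-N siRNA, without overlap, and 1 of the 11 fell (KRT18), 3 rose, 5 did not pass and 2 were not tested. By contrast, the lung differentiation genes SFTPB, SFTPC and NAPSA were at or below 0.69 TPM in every library. The defining markers PTPRC (leukocytes), DCN (fibroblasts) and PECAM1 (endothelium) were at or below 0.02 TPM in every library. The summed level of 6 fibroblast markers was 6.28 to 6.80 TPM with control siRNA and 15.6 to 15.98 TPM with HOTAIR-N siRNA, with COL1A1 at 3.95 and 12.1 TPM on average. Of 4 tested, 2 rose and 2 did not pass. The 5 leukocyte markers summed to 5.24 to 5.75 TPM with control siRNA and 3.2 to 3.92 TPM with HOTAIR-N siRNA. Of 2 tested, 1 fell and 1 did not pass. The 4 endothelial markers summed to 0.21 to 0.33 TPM with control siRNA and 0.35 to 0.43 TPM with HOTAIR-N siRNA. Of 2 tested, 1 rose and 1 did not pass. The part of these marker changes in the results was not tested.

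Most of the 41 genes were lower with HOTAIR-N siRNA. All 41 passed the filter on low counts, and 28 fell, 3 rose and 10 did not pass (edgeR quasi-likelihood test, adjusted over all 15072 genes tested). Among all tested genes, 28.8% were called lower and 28.7% higher, so the 28 of 41 that fell stand against a background in which both directions were about equally common. The median log2 fold change of the 41 genes was -0.35, against 0.01 over all tested genes, and 35 of the 41 values were below 0. The CPM values (counts scaled to library size, not length) of the groups did not overlap for 30 genes that were lower and 4 that were higher with HOTAIR-N siRNA, against 31.3% and 31.6% of all tested genes. The changes were of moderate size: a test against a fold of 1.5 called CENPP, CENPA, CENPF, CENPE, SPC25 and MAD2L1 lower and CENPQ higher, 6 and 1 of 41, where 5.77% and 5.51% of all genes were called. The TPM of the 41 genes summed to 3966, 4109.8 and 4274 in the control libraries and to 3091, 2970.6 and 3027 with HOTAIR-N siRNA.

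**Figure D1:**
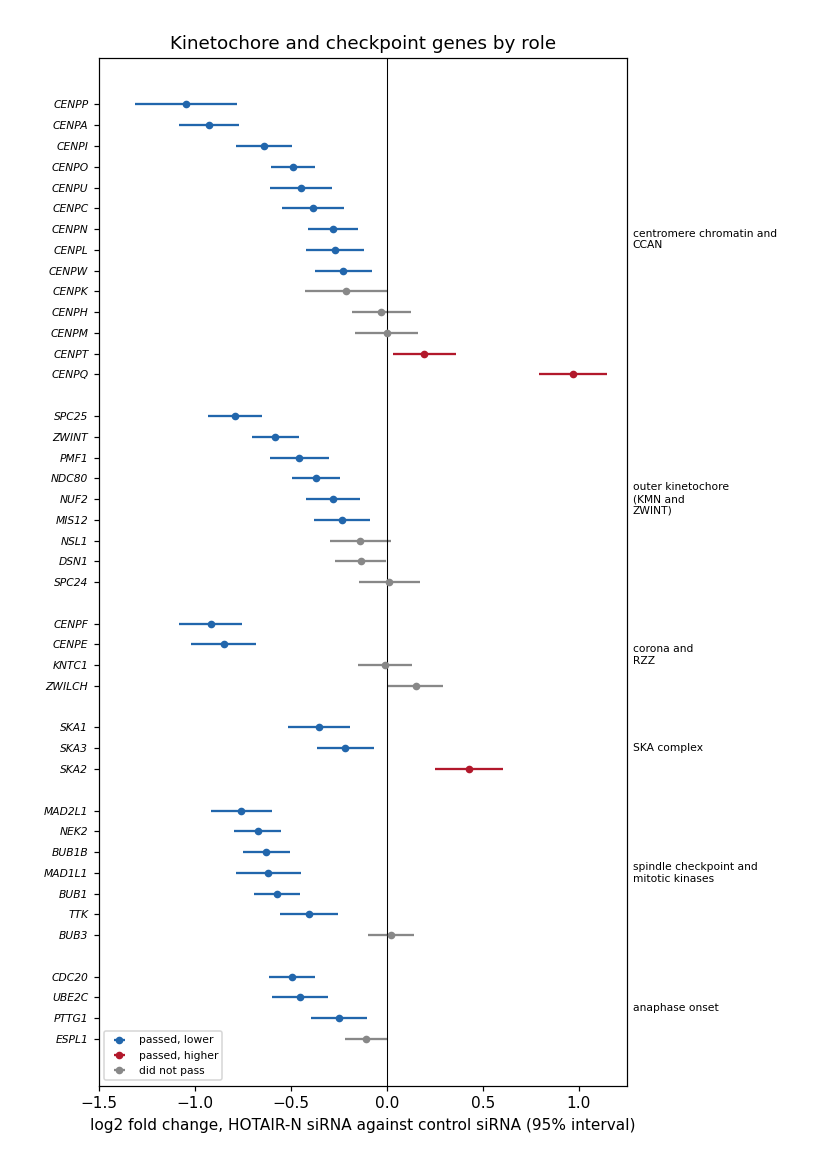
Log2 fold change (HOTAIR-N siRNA against control siRNA, horizontal axis) of the 41 genes, grouped by role, with 95% intervals from the edgeR fit. Blue points passed and were lower (28 genes), red passed and were higher (3 genes: CENPT, CENPQ and SKA2), and grey did not pass (10 genes).

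Within each group the libraries were close. Of the control libraries, replicate 3 had the highest CPM for 29 of the 41 genes and replicate 1 the lowest for 29, and the median member lay 0.08 above and 0.08 below the control mean there on the log2 scale. With HOTAIR-N siRNA the median member lay 0.27, 0.41 and 0.31 below the control mean in replicates 1, 2 and 3, further than any control library. Control replicate 1 differs most from its group over all genes as well, with a chi-square divided by its degrees of freedom, over gene counts, of 14.8 and 13.5 against the other controls and 7.05 between those. Without control replicate 1, 31 genes fell and 3 rose.

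**Figure D2:**
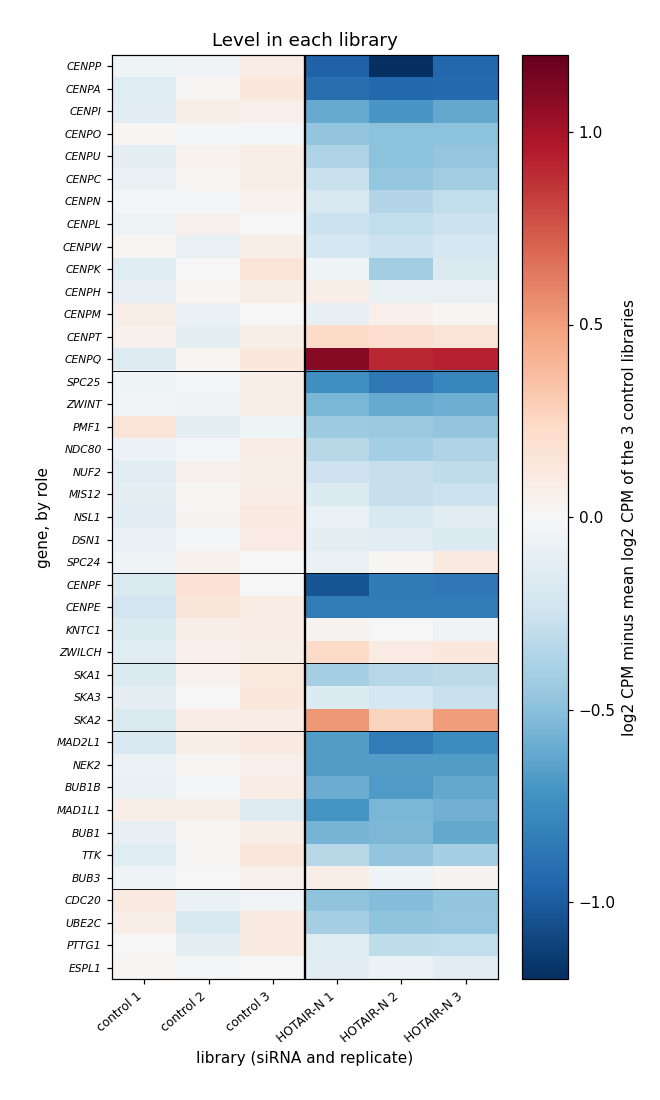
Log2 CPM of each of the 41 genes in each of the 6 libraries, as the difference from the mean log2 CPM of the 3 control libraries (colour). Rows are grouped by role and ordered by fold change within each role. The 28 genes that fell are blue in the 3 HOTAIR-N siRNA columns. Some genes that did not pass, such as DSN1 and ESPL1, are a paler blue there, and the CENPQ row is the strongest red.

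Mitotic genes are known to carry 2 kinds of short promoter element, CCAAT boxes bound by NF-Y and the cell cycle genes homology region (CHR), a site of the DREAM and MYBL2-MuvB complexes with the core TTTGAA or TTCGAA. These letters were searched on both strands in RefSeq promoter windows from 250 bases before to 50 after each annotated start (build GRCh38.p14), and 34 of the 41 genes had a window. The other 7 were CENPL, TTK and UBE2C, which fell, and BUB3, CENPH, CENPM and KNTC1, so the counts by word hold 6 of the 10 genes that did not pass. TTTGAA or TTCGAA was found for 17 of the 34 genes, in 15.6% of the 11268 tested genes with a window, and in 16.4% of all 35116 windows. CCAAT was found for 22 of 34 (64.7%), 42.7% of tested genes and 34.6% of windows, and both together for 11 of 34 (32.4%), 6.45% of tested genes and 6.38% of windows. The E2F-type word TTCCCGC, or its reverse complement GCGGGAA, was found for 5 of 34 (14.7%), 12.5% of tested genes and 6.55% of windows. Of the 17 genes with the CHR-type word, 16 fell and ESPL1 did not pass, with a median log2 fold change of -0.49. Of the 17 without it, 9 fell, CENPQ, CENPT and SKA2 rose and 5 did not pass, with a median of -0.23. For CCAAT the medians were closer, at -0.42 with it and -0.36 without. These differences were not tested, and the fold changes of all tested genes were not split by these words. A match of letters is a description and not evidence of a bound site, and genes with several starts were counted once if any window matched. Of the genes with both words, the 4 with the smallest p are printed first, and then the 2 with the smallest p among those that rose. Each run is 5′ to 3′ from 250 bases before the annotated start to 30 after it, with CCAAT (or its reverse, ATTGG) and TTTGAA or TTCGAA (or its reverse, TTCAAA) in capitals. The regions are chr2:26785806-26786085 (plus strand, CENPA), chr2:168890401-168890680 (minus, SPC25), chr1:214602945-214603224 (plus, CENPF), chr4:120066819-120067098 (minus, MAD2L1), chr6:49463120-49463399 (plus, CENPQ) and chr17:59155157-59155436 (minus, SKA2).
CENPA: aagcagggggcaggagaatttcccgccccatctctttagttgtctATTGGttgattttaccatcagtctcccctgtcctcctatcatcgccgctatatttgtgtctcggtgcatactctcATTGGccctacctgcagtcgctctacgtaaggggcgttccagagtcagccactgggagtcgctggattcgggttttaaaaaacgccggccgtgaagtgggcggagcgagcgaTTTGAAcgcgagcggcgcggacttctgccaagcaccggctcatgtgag
SPC25: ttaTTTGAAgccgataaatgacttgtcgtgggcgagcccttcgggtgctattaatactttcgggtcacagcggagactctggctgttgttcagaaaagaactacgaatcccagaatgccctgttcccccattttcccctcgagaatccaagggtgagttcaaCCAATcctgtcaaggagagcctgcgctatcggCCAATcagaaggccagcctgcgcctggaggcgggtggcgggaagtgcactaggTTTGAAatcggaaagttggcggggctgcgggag
CENPF: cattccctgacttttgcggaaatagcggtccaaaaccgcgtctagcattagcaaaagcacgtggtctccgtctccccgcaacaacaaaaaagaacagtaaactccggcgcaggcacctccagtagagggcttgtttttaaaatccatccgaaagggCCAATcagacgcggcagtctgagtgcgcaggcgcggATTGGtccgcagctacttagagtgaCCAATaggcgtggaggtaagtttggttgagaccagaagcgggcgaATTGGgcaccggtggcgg
MAD2L1: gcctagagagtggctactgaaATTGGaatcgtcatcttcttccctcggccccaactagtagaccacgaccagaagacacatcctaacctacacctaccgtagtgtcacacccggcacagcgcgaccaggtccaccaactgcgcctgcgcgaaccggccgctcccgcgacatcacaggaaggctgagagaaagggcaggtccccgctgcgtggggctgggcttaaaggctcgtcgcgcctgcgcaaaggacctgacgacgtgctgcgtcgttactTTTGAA
CENPQ: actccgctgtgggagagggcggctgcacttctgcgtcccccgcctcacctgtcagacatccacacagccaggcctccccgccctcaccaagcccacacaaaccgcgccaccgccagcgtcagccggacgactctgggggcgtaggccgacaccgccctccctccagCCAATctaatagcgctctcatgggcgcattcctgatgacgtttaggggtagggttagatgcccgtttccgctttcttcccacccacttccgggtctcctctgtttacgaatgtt
SKA2: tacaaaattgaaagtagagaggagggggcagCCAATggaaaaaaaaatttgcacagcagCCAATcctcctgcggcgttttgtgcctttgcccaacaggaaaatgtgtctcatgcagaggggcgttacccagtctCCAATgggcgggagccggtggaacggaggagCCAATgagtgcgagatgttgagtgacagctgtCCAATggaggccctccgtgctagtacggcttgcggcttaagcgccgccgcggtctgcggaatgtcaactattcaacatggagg
Counted from the annotated start, CENPA has 2 CCAAT boxes and a TTTGAA beginning at -18, and SPC25 has 2 CCAAT boxes and a TTTGAA at both -247 and -3. MAD2L1 has 1 CCAAT box, and its TTTGAA begins 24 bases after the start. CENPF has 4 CCAAT boxes, and its TTTGAA lies 40 bases after the start, past the printed end. CENPQ has 1 CCAAT box and SKA2 has 5, and neither has a CHR-type word in the window.

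**Figure D3:**
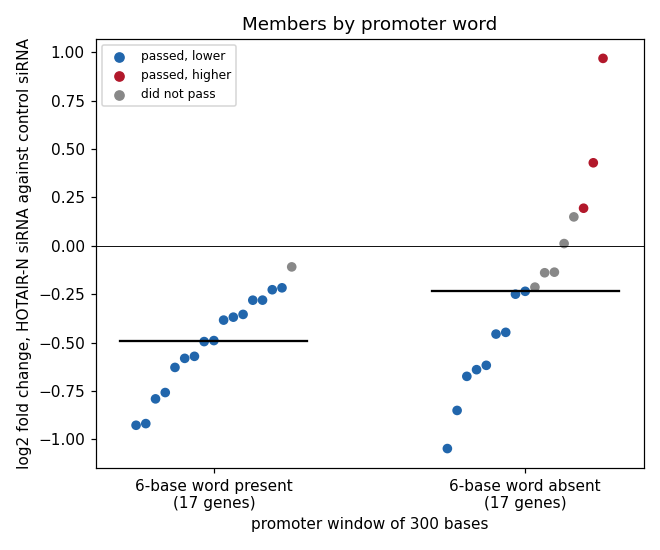
Log2 fold change of the 34 genes with a promoter window, split by whether the window of 300 bases holds a CHR-type word. Each point is a gene and the bars are medians, -0.49 with the word and -0.23 without, and the 3 red points, which rose, are all among the 17 genes without it. The difference was not tested.

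Of the 14 genes of centromere chromatin and the CCAN, 9 fell, 2 rose and 3 did not pass. CENPA, which encodes the centromeric histone, was 79.05, 93.9 and 96.9 TPM with control siRNA and 46.1, 45.3 and 45.6 TPM with HOTAIR-N siRNA. Every HOTAIR-N siRNA library lay well below every control, and the log2 fold change was -0.93 (SE 0.07, adjusted p = 6.03e-08), or 52.6% of control. CENPP, a CCAN subunit of the group around CENPO, was the gene with the lowest level and the largest fall of the 41, at 171, 174 and 197 rounded expected counts with control siRNA and 86, 73 and 95 with HOTAIR-N siRNA. The groups were apart despite the low counts, and the log2 fold change was -1.05 (SE 0.12, adjusted p = 4.27e-06), from 3.08 to 1.45 TPM on average. CENPP shares its locus in RefSeq with LOC100128361, which also fell (log2 fold change -1.49, adjusted p = 2.84e-06). CENPP also overlaps IPPK, which did not pass (log2 fold change 0.14, adjusted p = 0.0842). IPPK had 892 to 1019 expected counts per library against 73 to 197 for CENPP. Without a stated strand setting of the counting, the reads of these genes cannot be told apart. CENPI, CENPO, CENPU, CENPC, CENPN, CENPL and CENPW had log2 fold changes of -0.64, -0.49, -0.45, -0.38, -0.28, -0.27 and -0.23. CENPC is the scaffold that links CENP-A nucleosomes to the outer kinetochore, and CENPN reads the CENP-A nucleosome with CENPL.

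CENPQ went the other way. This subunit, which sits with CENPO, CENPP and CENPU in a single CCAN subcomplex, was 16.9, 20.3 and 20.8 TPM with control siRNA and 39.3, 35.02 and 35.6 TPM with HOTAIR-N siRNA. The groups were far apart, and the log2 fold change was 0.97 (SE 0.08, adjusted p = 1.74e-07), or 196% of control. Its partners CENPO, CENPP and CENPU fell, so within 1 subcomplex 3 of the 4 measured subunits fell and 1 rose. CENPT, which bridges the CCAN to NDC80, was 13.1, 12.3 and 13.5 TPM with control siRNA and 14.7, 14.5 and 14.1 TPM with HOTAIR-N siRNA. The groups just missed overlapping, and its small rise, 0.19 (SE 0.08, adjusted p = 0.0417), did not pass in 8 of the 15 alternatives other than the fold test; the values stand in the closing section. CENPT overlaps NUTF2 and THAP11 in RefSeq.

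CENPH, CENPK and CENPM did not pass, and the libraries of both groups were interleaved. CENPH was 50.4, 58.05 and 58.01 TPM with control siRNA and 56.1, 51.04 and 50.5 TPM with HOTAIR-N siRNA, and CENPM was 43.8, 41.05 and 42.2 TPM with control siRNA and 38.2, 42.9 and 41.7 TPM with HOTAIR-N siRNA. The log2 fold changes were -0.03 and -0.0025, with 95% intervals of -0.18 to 0.12 and -0.16 to 0.16. CENPK was 18.7, 21.4 and 23.3 TPM with control siRNA and 18.9, 15.2 and 18.2 TPM with HOTAIR-N siRNA, with a log2 fold change of -0.21 (SE 0.10, adjusted p = 0.0809) that did pass when control replicate 1 was left out (-0.28, adjusted p = 0.0191) and when HOTAIR-N siRNA replicate 1 was (-0.30, adjusted p = 0.0298). CENPH, CENPI, CENPK and CENPM form 1 CCAN subcomplex, and CENPI was the single member of it that fell.

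In the outer kinetochore, 6 of 9 genes fell and 3 did not pass. The NDC80 complex, the rod that grips the microtubule, has 4 subunits that did not move alike. NDC80 was 99.6, 109 and 113 TPM with control siRNA and 81.8, 78.5 and 81.1 TPM with HOTAIR-N siRNA, a log2 fold change of -0.37 (SE 0.06, adjusted p = 7.42e-05), and NUF2, its coiled-coil partner, had -0.28. SPC25 was 74.5, 80.8 and 82.4 TPM with control siRNA and 45.7, 42.4 and 44.8 TPM with HOTAIR-N siRNA. It fell the most of the 4, by 0.79 on the log2 scale (SE 0.07, adjusted p = 1.13e-07). SPC24, which forms the globular dimer with SPC25, was 22.1, 24.7 and 22.5 TPM with control siRNA and 19.7, 22.5 and 23.5 TPM with HOTAIR-N siRNA, and the groups overlapped, with a log2 fold change of 0.01 (95% interval -0.15 to 0.17). The intervals of SPC24 and SPC25 did not overlap. On the TPM scale, SPC25 was 79.2 and SPC24 23.1 in the controls on average and 44.3 and 21.9 with HOTAIR-N siRNA.

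Of the MIS12 complex, which joins the centromere to NDC80 and KNL1, PMF1 and MIS12 fell (-0.46 and -0.23) and DSN1 and NSL1 did not pass. DSN1 was 51.7, 57.5 and 59.7 TPM with control siRNA and 50.5, 50.1 and 49.0 TPM with HOTAIR-N siRNA, and NSL1 was 10.7, 10.8 and 10.6 TPM with control siRNA and 7.88, 9.44 and 9.76 TPM with HOTAIR-N siRNA. DSN1 was lower in CPM in every HOTAIR-N siRNA library but the difference was small, -0.14 (SE 0.06, adjusted p = 0.0747), and NSL1 had -0.14 (SE 0.07, adjusted p = 0.125), with groups that were apart in TPM and overlapped in CPM. ZWINT, which binds KNL1 and recruits RZZ, fell to 66.8% of control, from 92.9 ± 4.105 to 62.1 ± 1.18 CPM (SD, n = 3 each). PMF1 shares exons with the readthrough gene PMF1-BGLAP, at 39 to 92 expected counts, and MIS12 overlaps DERL2, which fell too (-0.44, adjusted p = 5.08e-05).

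The fibrous corona is the outermost layer of an unattached kinetochore, and its genes split. CENPF, a large coiled-coil protein of the corona and a known marker of G2 cells, was 101, 136 and 116 TPM with control siRNA and 54.95, 63.1 and 63.2 TPM with HOTAIR-N siRNA. CENPE, the plus-end kinesin that brings chromosomes to the metaphase plate, was 36.7, 50.5 and 46.6 TPM with control siRNA and 23.7, 24.0 and 24.1 TPM with HOTAIR-N siRNA. Control replicate 1 was the lowest control for both and still lay above every HOTAIR-N siRNA library. The log2 fold changes were -0.92 (SE 0.08, adjusted p = 1.18e-07) and -0.85 (SE 0.08, adjusted p = 3.91e-07). KNTC1 and ZWILCH, which encode the ROD and ZWILCH subunits of the RZZ complex that carries MAD1 and dynein to kinetochores, did not pass. KNTC1 was 37.9, 47.4 and 45.95 TPM with control siRNA and 42.9, 42.3 and 41.3 TPM with HOTAIR-N siRNA, with a log2 fold change of -0.01 (95% interval -0.15 to 0.13). ZWILCH was 51.4, 62.5 and 61.1 TPM with control siRNA and 65.4, 60.6 and 61.98 TPM with HOTAIR-N siRNA. Its CPM was higher in every HOTAIR-N siRNA library, with a log2 fold change of 0.15 (SE 0.07, adjusted p = 0.0686), and it passed without control replicate 3 (0.19, adjusted p = 0.0399), with upper-quartile (0.17, adjusted p = 0.0324) or no scaling (0.17, adjusted p = 0.0359) and with the stricter filter (0.16, adjusted p = 0.0462).

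The SKA complex helps NDC80 follow shortening microtubules, and its 3 genes all passed, in different directions. SKA1 and SKA3 fell, with log2 fold changes of -0.35 and -0.22, while SKA2 rose. The summed TPM of the 3 genes, 88.9, 107.6 and 108.5 with control siRNA and 100.8, 94.5 and 100.9 with HOTAIR-N siRNA, overlapped between the groups. The call of SKA3 was lost when control replicate 3 was left out (-0.15, adjusted p = 0.0814) and also when HOTAIR-N siRNA replicate 3 was (-0.19, adjusted p = 0.0736). SKA2 was 29.2, 37.2 and 35.7 TPM with control siRNA and 46.6, 39.8 and 46.9 TPM with HOTAIR-N siRNA. All HOTAIR-N siRNA libraries were above all controls, with a log2 fold change of 0.43 (SE 0.08, adjusted p = 4.27e-04). The deposited tables list 3 tested isoforms of SKA2. The most abundant, NM_182620, made up 69.2, 71.6 and 70.5% of the gene with control siRNA and 82.1, 83.9 and 84.4% with HOTAIR-N siRNA, and NM_001100595 went from 25.7, 24.4 and 26.3% to 14.9, 13.2 and 13.5%. NM_182620 rose (log2 fold change 0.68, SE 0.11, adjusted p = 0.0119 over all isoforms), and NM_001100595 had -0.43 (adjusted p = 0.106). The shares did not overlap between the groups, but the test of isoform use did not call SKA2 (edgeR diffSpliceDGE, adjusted p = 0.529).

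**Figure D4:**
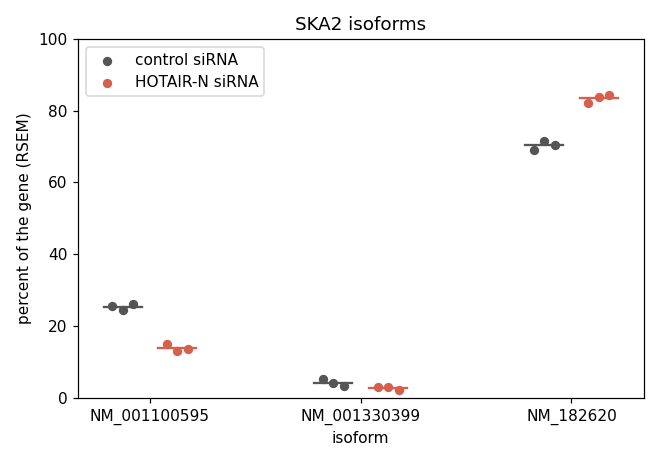
Percent of SKA2 that each of its 3 tested isoforms makes up, as estimated by RSEM, in the 3 control (grey) and 3 HOTAIR-N siRNA libraries (red), with group means as bars. NM_182620 is higher and NM_001100595 lower in every HOTAIR-N siRNA library, though the test of isoform use did not pass.

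Of the 7 spindle checkpoint and mitotic kinase genes, 6 fell and BUB3 did not pass. Together they summed to 857, 981 and 983 TPM with control siRNA and 666, 637 and 657 TPM with HOTAIR-N siRNA, with no overlap. MAD2L1, whose product MAD2 is the conformational switch that captures CDC20, was 231, 293 and 288 TPM with control siRNA and 162, 147 and 156 TPM with HOTAIR-N siRNA. It fell by 0.76 on the log2 scale (SE 0.07, adjusted p = 5.77e-07), from 177 ± 18.8 to 105 ± 5.88 CPM (SD, n = 3 each). BUB1B, which encodes BUBR1, a further subunit of the complex that holds CDC20, was 83.3, 92.4 and 95.2 TPM with control siRNA and 57.4, 54.9 and 57.8 TPM with HOTAIR-N siRNA, a log2 fold change of -0.63 (SE 0.06, adjusted p = 3.37e-07). NEK2, a centrosomal and kinetochore kinase, was 78.8, 89.2 and 87.8 TPM with control siRNA and 51.04, 52.03 and 51.99 TPM with HOTAIR-N siRNA, a log2 fold change of -0.67 (SE 0.06, adjusted p = 1.68e-07). In all 3 genes the groups were well separated. MAD1L1, the kinetochore anchor of MAD2, BUB1, the kinase that recruits BUBR1, and TTK, the kinase that starts the checkpoint, had log2 fold changes of -0.62, -0.57 and -0.40. BUB3, which binds phosphorylated KNL1 and also has a role in splicing, was 192, 195 and 203 TPM with control siRNA and 195, 182 and 193 TPM with HOTAIR-N siRNA. Its groups overlapped, with a log2 fold change of 0.02 (95% interval -0.10 to 0.14). The interval lies apart from those of its binding partners BUB1 (-0.69 to -0.45) and BUB1B (-0.75 to -0.50).

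Of the 4 genes of anaphase onset, 3 fell. UBE2C, CDC20 and PTTG1 had the 3 highest TPM of the 41 genes. UBE2C, the ubiquitin-conjugating enzyme of the anaphase-promoting complex, averaged 904 TPM with control siRNA and 639.7 TPM with HOTAIR-N siRNA, and its log2 fold change was -0.45 (SE 0.07, adjusted p = 5.20e-05). CDC20, the activator and checkpoint target, was 436, 406 and 402 TPM with control siRNA and 284, 280.1 and 291 TPM with HOTAIR-N siRNA. It fell to 70.97% of control, -0.49 (SE 0.06, adjusted p = 3.41e-06). PTTG1, which encodes securin, was 336, 328 and 367 TPM with control siRNA and 299, 271 and 272 TPM with HOTAIR-N siRNA. The groups lay closer here, and its log2 fold change was -0.25 (SE 0.07, adjusted p = 0.00525). With the trend of fold change on gene length removed it was -0.41 (adjusted p = 6.30e-05). ESPL1, which encodes separase, was 49.7, 51.2 and 49.7 TPM with control siRNA and 43.9, 46.6 and 45.2 TPM with HOTAIR-N siRNA. Every HOTAIR-N siRNA library was below every control, but the difference of -0.11 (SE 0.05, adjusted p = 0.08) did not pass. The relatives PTTG2 and PTTG3P had at most 2 counts in a library, and the pseudogene UBE2CP5 had 64 to 100 counts against 7711 or more for UBE2C.

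Isoforms of the 41 genes were examined on the whole isoform table. Of their 119 isoforms, 102 were tested, and 29 fell, 2 rose and 71 did not pass, where 10.1% of all tested isoforms were called lower and 9.39% higher. The count of 31 called isoforms went to 20 without HOTAIR-N siRNA replicate 3 and to 13 with the replicate number as a block. No called isoform moved against a called gene. The second isoform that rose was NM_018132, the single tested isoform of CENPQ (0.98, adjusted p = 0.00245). DSN1, which did not pass as a gene, had 1 isoform that fell, NM_001145317, from 6.07 ± 0.95 to 2.85 ± 0.80% of the gene (SD, n = 3 each; log2 fold change -1.22, adjusted p = 0.0446). None of the 27 genes with more than 1 tested isoform was called for isoform use (edgeR diffSpliceDGE), against 4.13% of all genes tested. Of the 27, only SKA2 had an unadjusted p under 0.05, against 709 of all 7523 genes tested for isoform use. In simulated counts that test recovered 4.26% of genes whose most abundant isoform changed 2-fold, and 20.8% at 3-fold. The lack of a call, for SKA2 included, therefore does not show unchanged isoform use. After SKA2 the smallest Simes p were 0.139 for SKA1 and 0.320 for DSN1. NM_145060 of SKA1 went from 76.9 ± 9.78 to 62.1 ± 8.45% of the gene (SD, n = 3 each).

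The wider pathway moved in the same direction in part. Of 83 tested genes on 4 lists around the kinetochore, 53 fell, 10 rose and 20 did not pass. Over all tested genes 28.8% were called lower and 28.7% higher, the shares to set beside each list count here and below. Among 22 other kinetochore and centromere genes, 16 fell and 2 rose, with the smallest p for KNL1, the KMN scaffold to which BUB1 and BUB3 bind, SPAG5 (astrin) and HJURP, the chaperone that loads CENP-A. Their log2 fold changes were -1.02 (SE 0.07), -0.59 (SE 0.05) and -0.53 (SE 0.05). Of 17 subunits and partners of the anaphase-promoting complex, 8 fell and 4 rose. The subunit CDC23 rose by 0.87 (SE 0.07) on the log2 scale, while ANAPC10 (-0.95) and the inhibitor FBXO5 (-0.62) fell. Of 20 cohesin and condensin genes, 15 fell and STAG2 rose (0.17), and SMC3, NCAPG2 and STAG1 fell by 0.66, 0.53 and 0.64. Of 24 regulators known to act on mitotic promoters, 14 fell and 3 rose. LIN52, a subunit of the MuvB core that binds the CHR, and the repressor E2F7 were at 42.1% and 48.01% of control, and CDKN1A, the cyclin-dependent kinase inhibitor p21, rose (0.92 (SE 0.07)). Chosen after their values were seen, FOXM1 (-0.51) and MYBL2 (-0.20), activators of the same promoters, fell.

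Beside these, 15 genes of the passenger complex and cytokinesis all fell (median log2 fold change -0.59), and 10 of 11 tested mitotic kinesin genes fell (median -0.43). Of 25 genes of replication licensing and forks, 9 fell, 4 rose and 12 did not pass, with a median of -0.06. No test of the difference between these lists and the 41 genes was made.

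Short words in the transcripts were also counted, because GACCAAT and ACCAATA went with lower levels across all genes of these same libraries, in an earlier scan on the same data. In GENCODE 29 transcripts (1 per gene, the longest coding sequence), 8 of the 41 genes (19.5%) held either word in the 3' UTR or coding sequence, against 20.2% of 13466 tested genes searched. Of these 8 genes, 7 fell and KNTC1 did not pass, with a median log2 fold change of -0.65. MAD2L1 is among them through a GENCODE 3' UTR of 4510 bases, whereas its single isoform in the deposited tables is 1436 bases long in all and cannot hold sites that far along. Without it, a choice made after seeing the data, 6 of 7 fell with a median of -0.63. Of the other 33 genes, 21 fell, with a median of -0.27. Over all genes searched the medians were -0.20 with a word and 0.04 without. For a second pair of words from the same scan, TGAATAT and GAATATA, the medians of the 41 genes were -0.35 with it (19 genes, 11 fell) and -0.32 without (22 genes, 17 fell). Among the 19, BUB3, CENPC and DSN1 hold this pair in the 3' UTR alone. The UTRs of BUB3 and CENPC, of 6632 and 3857 bases, are longer than their longest deposited isoforms of 2764 and 3349 bases, which may lack the sites. The words were picked for their relation to fold changes that include these genes, so the contrast is a description, and the part of the words in the result was not tested. In the 3' UTR the words occurred in CENPF and CENPN, apart from the MAD2L1 sites above, which are not shown. The sites follow, with the word in capitals and up to 9 bases on either side.
CENPF: ctgtttttaGACCAATtttttacag
CENPN: ctcaaatttGACCAATcttggaagc
CENPF also holds ACCAATA in the coding sequence, where BUB1B, CENPE, KNTC1, NEK2 and TTK hold at least 1 of the words. CENPA, SPC25 and CENPP, among the genes that fell the most, hold neither, and neither do CENPQ, CENPT and SKA2.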

How the data were processed

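Per the submitters' processing notes, reads were aligned with STAR 2.6.0c and quantified with RSEM 1.3.0 on genome build hg19. The sources used here give neither the annotation release nor the strand setting. Libraries were made, per the labels' protocols, with a stranded total RNA kit after ribosomal RNA depletion. The deposited tables, 1 for genes and 1 for isoforms per library, hold expected counts (named so per the file headers), which were not whole for 10.6 to 11.2% of genes per library. Deposited TPM values were scaled by the authors per library. For isoforms the deposited percent is the share of the gene. Gene lengths were taken from the same tables.

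The rounded counts entered edgeR 4.0.16 in R 4.3.3, with the settings that follow (filterByExpr, TMM scaling, robust quasi-likelihood test, Benjamini-Hochberg adjustment over all tested genes or isoforms, threshold 0.05). The SE was taken from the F statistic, and 95% intervals from it. Isoform use was tested with diffSpliceDGE. The 41 genes, the role and pathway lists and the rules for which genes are named were chosen with earlier results of these data known. Per-library values were given for HOTAIR, 7 role-defining genes, the 8 largest changes, the genes that rose and the 10 that did not pass, and of pathway lists the 3 smallest p. Alternatives were RLE, upper-quartile and no scaling, no and a stricter filter (CPM of at least 1 in 3 libraries), DESeq2 1.42.0, limma-voom (limma 3.58.1), a test against a fold of 1.5, the replicate number as a block, a gene length trend removed, and each library left out.

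Depth limits the precision for CENPP most, and isoform values also carry the unstated error of dividing shared reads. Promoters came from RefSeq (GRCh38.p14) and transcripts from GENCODE 29, on another build than the tables, so that gene coordinates of the tables are not given.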

Additional observations from a re-analysis of the deposited data

How the results depend on the processing

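The 28 genes that fell numbered 27 to 31 and the 3 that rose 2 to 4 when each library was left out in turn, with the median log2 fold change between -0.37 and -0.29. Over the 15 alternatives other than the test against a fold of 1.5, 26 of the 28 and 2 of the 3 passed in the same direction each time. The exceptions were SKA3, CENPW (without HOTAIR-N siRNA replicate 2, adjusted p = 0.0547) and CENPT. CENPT did not pass with no filter (adjusted p = 0.0553), DESeq2 (0.0771), the replicate block (0.0863), the length trend removed (0.0503), or without control replicate 2 (0.175) or HOTAIR-N siRNA replicate 1 (0.127), 2 (0.100) or 3 (0.0798). Of the genes that had not passed, CENPK (-0.26) and DSN1 (-0.16) passed with the length trend removed, and DSN1 (-0.17) and NSL1 (-0.20) without control replicate 1.

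A test against a fold of 1.5 called 1700 of all 15072 genes, 5.77% as lower and 5.51% as higher. Of the 41 genes it called 6 as lower and 1 as higher. Of the 83 pathway genes it called 4 as lower and 2 as higher, not above the shares over all genes. The called isoforms of the 41 genes ranged from 20 to 28 with each library left out. Genes called over all numbered 7503 to 9234 then, and HOTAIR had -1.14 to -0.94.

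Values near 0 changed sign without passing: CENPM with upper-quartile (0.0195) or no scaling (0.0192) and the stricter filter (0.00908), KNTC1 with the same (0.0144, 0.0129 and 0.0031) and with the length trend removed (0.0563), and with that trend removed SPC24 (-0.0329) and BUB3 (-0.0108). With a library left out, CENPM ranged from -0.0427 to 0.0403, KNTC1 from -0.0809 to 0.0329, CENPH from -0.0885 to 0.00855, SPC24 from -0.0365 to 0.0554 and BUB3 from -0.0122 to 0.0581. The causes were not tested.

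The replicate numbers did not pair the libraries: same-numbered libraries had correlations of -0.12, 0.02 and -0.04 of their deviations from the group mean, and 1 of 6 correlated best with its own number. With the replicate number as a block, 7984 genes were called, 28 of the 41 fell and 2 rose, and 13 isoforms of the 41 genes passed instead of 31. P-values measure the spread between transfections of 1 line.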
